A study of Rattus norvegicus with 10 samples.

Results

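The genes described here are the cilium and axoneme genes of the supraoptic nucleus, a paired nucleus of the hypothalamus whose magnocellular neurons make vasopressin and oxytocin. Members were the rows of the deposited table whose gene name began with Cfap, Dnah, Dnai, Rsph, Tekt, Drc, Ift or Bbs followed by a digit. This gave 76 of 32623 genes, of which 66 had a mean of at least 10 normalized counts over the 10 samples and were tested. The names used no measured value, but the tested genes were selected on their mean count, and Cfap44 was set apart, chosen by its known log2 fold change in this same comparison. Its values are therefore given as a description, with no test. Just above the minimum lay Cfap126, Cfap65 and Rsph6a, with means of 14.1, 16.8 and 21.9. Just below it lay Drc7, Cfap206 and Tekt3, with means of 9.62, 9.40 and 7.17.

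RNA sequencing covered 10 nuclei from rats of the outbred Sprague Dawley strain, all male, that weighed 250 to 300 g, with no age given. Every rat had an adeno-associated virus coding for an Opn3-directed short hairpin RNA injected into the supraoptic nucleus of one side. The opposite nucleus got the same kind of virus with a hairpin that has no target. The 5 shOpn3 and 5 shControl nuclei were taken 2 weeks later, so the controls had received virus as well. The promoter that drives the hairpins and the cells they reach were not given in the sources used here. Opn3 encodes opsin 3, a light-sensitive receptor of the opsin family. The libraries held 33158341 to 39958578 reads each. Opn3 itself had 719, 694, 841, 1007 and 261 normalized counts in shControl replicates 1 to 5 and 290, 193, 159, 154 and 145 in shOpn3 replicates 1 to 5. It was lower in all 5 same-numbered pairs, although shControl replicate 5 lay below shOpn3 replicate 1.

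Motile cilia and sperm flagella are built on an axoneme, a ring of doublet microtubules on which rows of dynein motors pull. Dnah genes encode the heavy chains of these motors and Dnai genes their intermediate chains. Radial spokes (Rsph), the nexin-dynein regulatory complex (Drc) and many Cfap proteins hold and regulate the motors, and tektins (Tekt) line the doublets. Most neurons and astrocytes carry a single non-motile primary cilium that senses signals and lacks these motors, while ependymal cells of the ventricle wall carry tufts of motile cilia. Intraflagellar transport (Ift) builds both kinds of cilium, and the BBSome (Bbs) carries membrane receptors in and out of them.

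Of the 66 genes tested, 2 were higher and 10 lower in shOpn3 (limma, adjusted p under 0.05 over all genes tested). Over all 15597 genes tested, 18.8% were called, 10.4% higher and 8.48% lower. The members' share was 18.2%, so that cilium genes were called about as often as any gene, with 3.03% called higher and 15.2% called lower. Without Cfap44, which was chosen by this contrast and whose call is no test, 2 of 65 were higher and 9 lower (3.08% and 13.8%). The 2 higher genes were Cfap77 and Dnah11. The 10 lower genes were Cfap44, Cfap57, Cfap410, Cfap20, Dnah8, Rsph3, Ift27, Ift20, Bbs1 and Bbs9. The median log2 fold change of the 66 genes was -0.04, beside -0.02 for all genes tested. With the replicate number as a block, 18 members were called, 4 higher and 14 lower, where 30.3% of all genes were called, 15.1% higher and 15.2% lower. The edgeR test on recovered reads called the same 12 members, beside 19.4% of all genes (10.4% higher, 9.04% lower). In the authors' deposited table, 15 of the 71 members with an adjusted p were called, 2 higher and 13 lower, beside 21.3% of all genes there (11.4% higher, 9.89% lower). With Cfap44 left out, the count of lower members was 2 (3.08%) without shOpn3 replicate 3, where 5.26% of all genes were lower. It was 4 (6.15%) without shOpn3 replicate 5, where 6.34% were. It was 5 (7.69%) without shOpn3 replicate 4 or any of shControl replicates 2, 3 and 4, where 6.37% to 7.49% of all genes were lower. Without shOpn3 replicate 2 it was 6 (9.23%), beside 7.24% of all genes. Without shControl replicate 1 or 5 it was 7 (10.8%), beside 7.34% and 8.49%. Without shOpn3 replicate 1 it was 10 (15.4%), beside 9.01%. The count of higher members was 6 (9.23%) without shControl replicate 5, where 10.1% of all genes were higher. These are bulk samples, in which fewer cells of a type and less RNA per cell cannot be told apart.

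**Figure D1:**
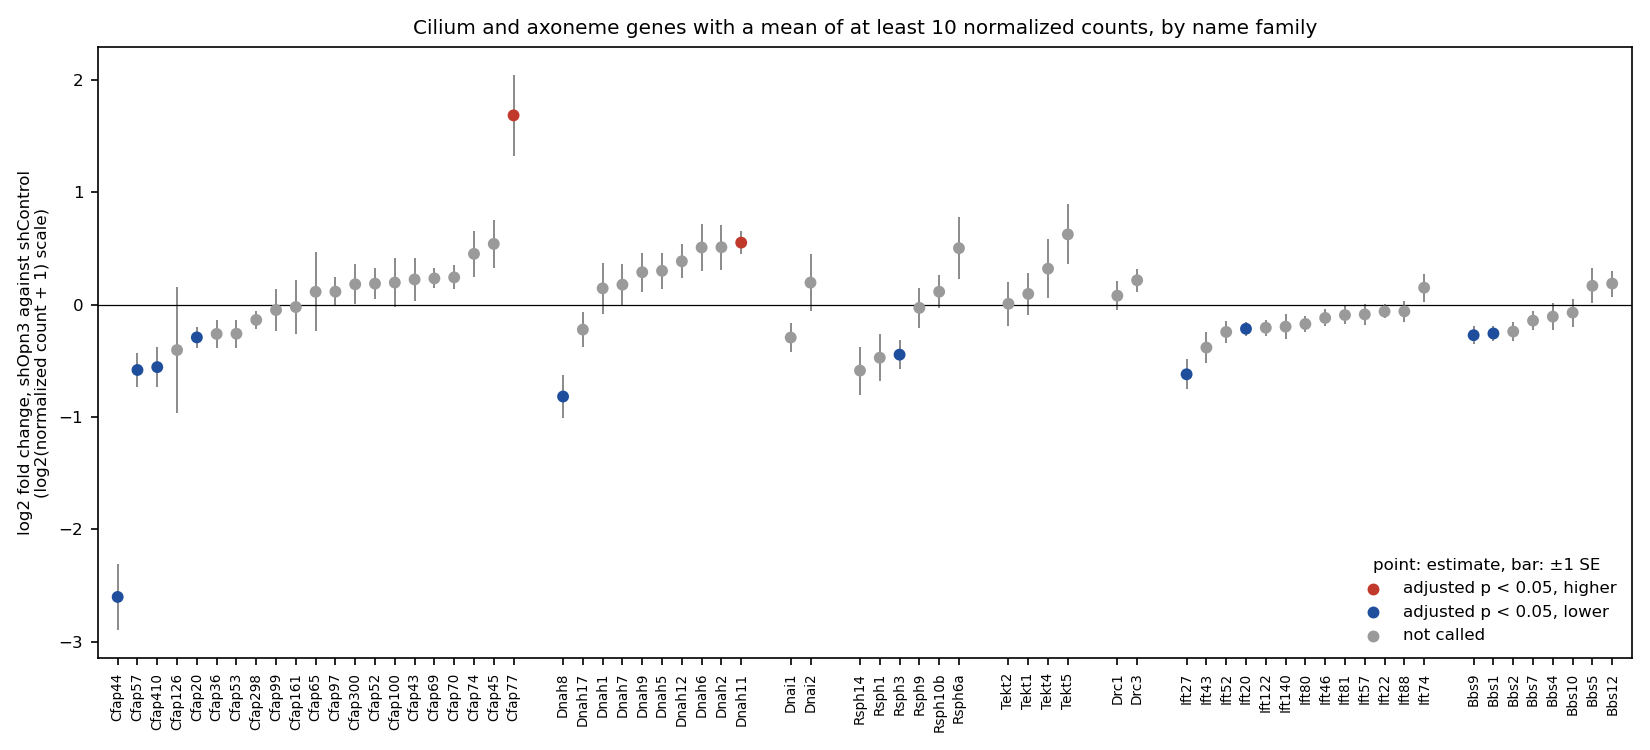
Log2 fold change of shOpn3 against shControl (y axis, log2(normalized count + 1) scale) for the 66 tested genes, ordered within each name family (x axis); points are limma estimates, bars are 1 standard error, and colour gives the call at an adjusted p under 0.05. Cfap44 lies at -2.60 and the next lowest gene, Dnah8, at -0.82, while Cfap77 at 1.69 is the highest.

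Cfap44 (ENSRNOG00000028077) encodes part of the tether that holds the head of a double-headed inner dynein arm to the doublet, and it works there beside Cfap43. It had 281, 270, 229, 265 and 180 normalized counts in shControl replicates 1 to 5. In shOpn3 replicates 1 to 5 it had 92.1, 40.4, 30.8, 26.1 and 29.8. All shOpn3 samples lay below all shControl samples, and shOpn3 replicate 1 stood above the other 4 of its group. The recovered reads behind the lowest value were 27. Group means were 245 ± 41.1 and 43.8 ± 27.5 (SD, n = 5 each), a 5.59-fold difference, with a log2 fold change of -2.60 (SE 0.296). Within pairs 1 to 5, Cfap44 in shOpn3 kept 32.7%, 15.0%, 13.5%, 9.84% and 16.5% of the level in its control. The authors' deposited table gave Cfap44 a log2 fold change of -2.48.

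No other member came near this size. The next lowest log2 fold change was -0.82 (Dnah8), which left a gap of 1.78 to Cfap44. Among the 65 other genes, 64 lay within 1 of zero on the log2 scale and 53 within 0.5, and Cfap77 was the exception beyond 1. Their median was -0.03. Cfap43, the partner of Cfap44 in the tether, averaged 128 ± 37.9 normalized counts in the controls and 147 ± 21.6 under the Opn3 hairpin (SD, n = 5 each). Its log2 fold change was 0.22, with a 95% interval from -0.19 to 0.64 that excludes a fall of the size seen for Cfap44 (limma adjusted p = 0.456). Dnah2, a heavy chain of the same double-headed inner arm, had a log2 fold change of 0.51 (SE of 0.202, limma adjusted p = 0.101).

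**Figure D2:**
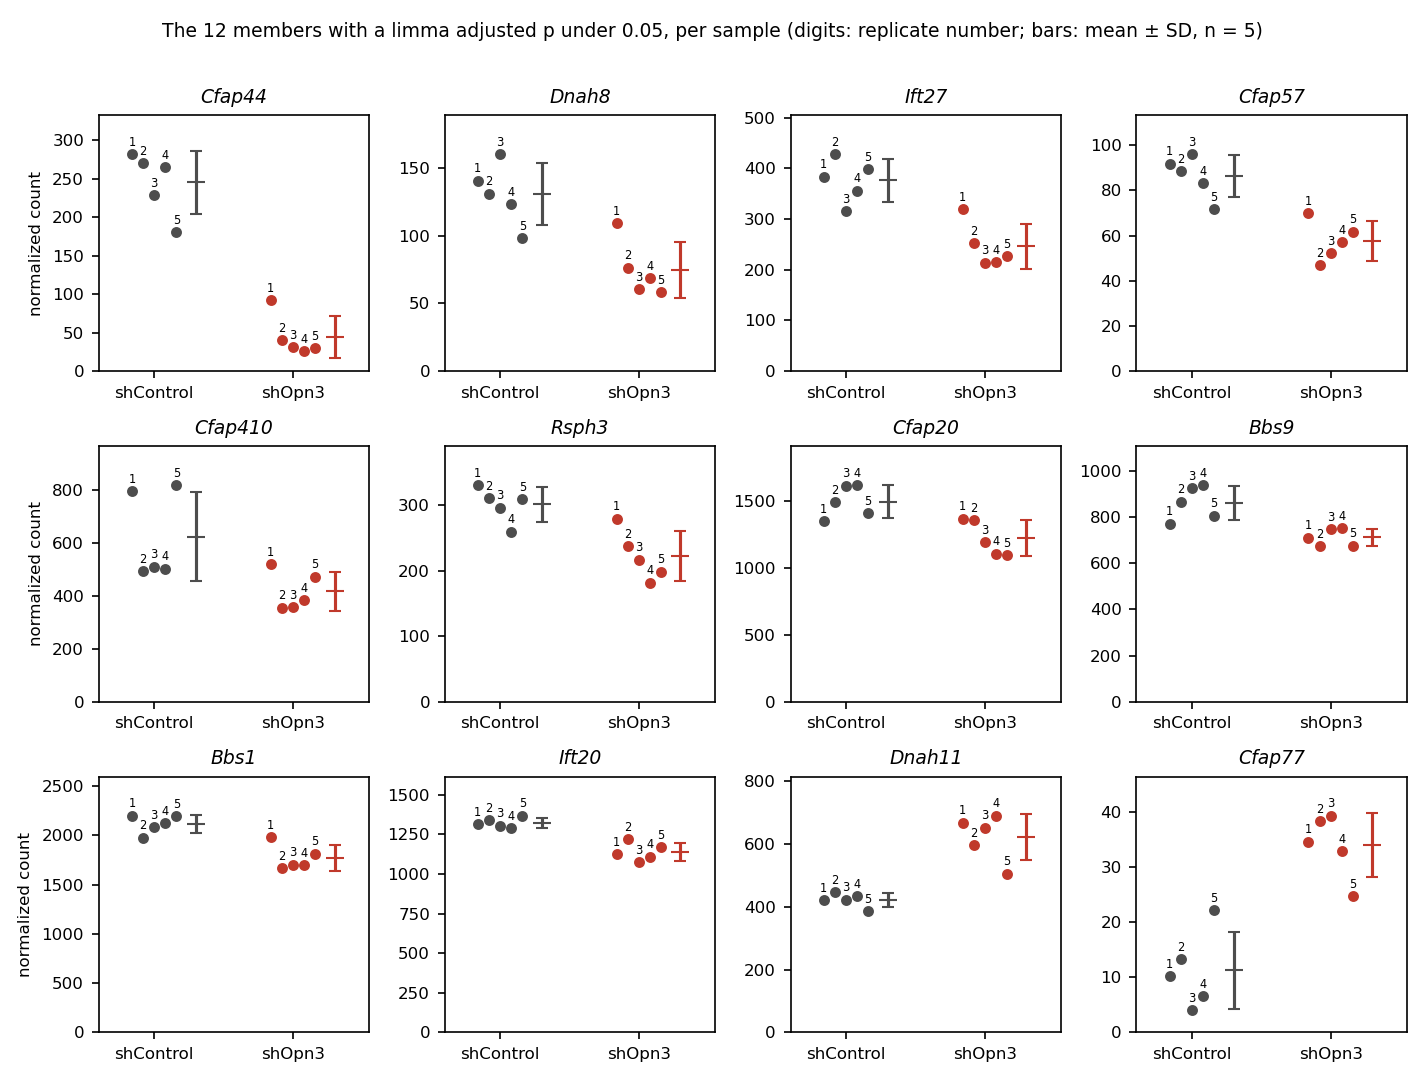
Normalized counts (y axis, from 0) of the 12 called genes in each sample, shControl in grey and shOpn3 in red (x axis), with replicate numbers as digits and bars for the mean ± SD of 5 samples. Groups are fully apart for Cfap44, Cfap57, Bbs9, Ift20, Dnah11 and Cfap77 and overlap for the other 6.

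The protein-coding genes on either side of Cfap44 on its chromosome were not called, while the next ones on 1 side were higher. In the RefSeq gene table of assembly GRCr8, the nearest protein-coding genes are Boc, a receptor partner of the hedgehog pathway, and Spice1, a centriole and spindle protein. Spice1 was added after its values were seen. Boc had 633, 514, 428, 654 and 704 normalized counts in shControl replicates 1 to 5 and 473, 559, 514, 777 and 668 in shOpn3 replicates 1 to 5, so the groups overlapped. Its log2 fold change was 0.03 (SE of 0.164, limma adjusted p = 0.931). Spice1 lay between 336 and 371 in shControl and between 349 and 446 in shOpn3, with a log2 fold change of 0.20 (SE of 0.0941, limma adjusted p = 0.175). Beyond Spice1 lie Sidt1, a protein of nucleic acid uptake, and Usf3, a transcription factor, both also added after their values were seen. Sidt1 had 861 to 1093 normalized counts in shControl and 1318 to 1648 in shOpn3, without overlap, and was higher (log2 fold change 0.59, SE 0.0895; limma adjusted p = 0.000997). Usf3 had 881 to 1088 and 1089 to 1217, also without overlap, and was higher (0.29, SE 0.0796; limma adjusted p = 0.0245). The same table places 2 non-coding genes, LOC120095657 and LOC134481069, inside the span of Cfap44. Whether reads were counted by strand was not given in the sources used here, so reads of such overlapping genes cannot be told apart from those of Cfap44.

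The genes most like Cfap44 across the 10 samples were not axonemal. Among 13922 other tested genes with a symbol, the highest Pearson correlations of log2 levels were those of Elapor1 (0.990), Maged2 (0.989), Fezf2 (0.989), Hunk (0.989) and Pou3f2 (0.988). Pou3f2 encodes a transcription factor needed for the magnocellular lineage. All 10 points share the difference between the groups, which raises these values for every gene that fell. After the group means were subtracted, the highest were Hunk (0.974), Cog7 (0.954), Gpx3 (0.948), Slc35f3 (0.942) and Dyrk3 (0.941). Hunk is the gene named under both measures. On the deviations, the peptide genes Oxt and Avp stood at 0.706 and 0.639 and Opn3 at 0.685, and the uncalled neighbour Spice1 at 0.612. The microglial gene Cd68 stood at -0.167, the myelin gene Mog at -0.457 and the neighbour Boc at -0.536. Within the cilium genes, the closest were Ift27 (0.943), Dnah8 (0.938) and Bbs1 (0.908) on levels and Dnah8 (0.833), Ift27 (0.770) and Rsph3 (0.766) on deviations. As in Cfap44, shOpn3 replicate 1 was the highest sample of its group for Dnah8, Ift27, Rsph3, Opn3, Avp, Oxt and Pou3f2. Cfap44 had 92.1 normalized counts in that sample and 40.4 in the next, so that sample weighs heavily in the deviations. Dnah8, Ift27 and Rsph3 were picked by their likeness to Cfap44, which makes a shared high sample likely. The lower members Bbs1, Cfap57, Cfap410 and Cfap20 also peaked there, while Ift20 and Bbs9 did not.

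**Figure D3:**
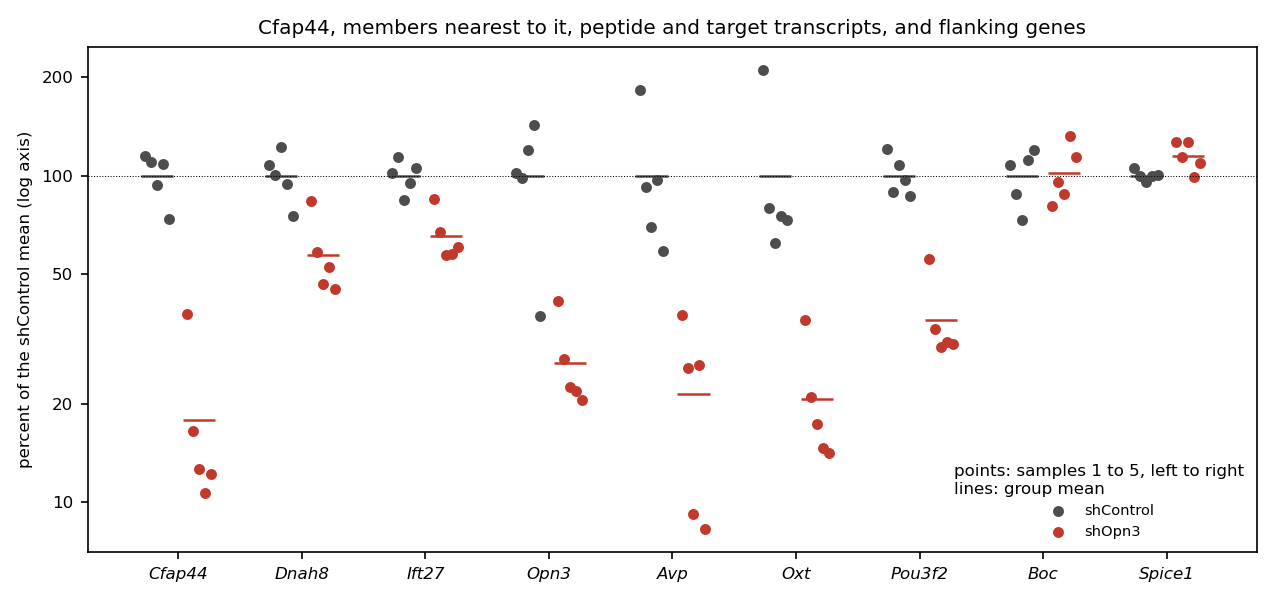
Each sample as a percent of the shControl mean of its gene (y axis, log scale) for Cfap44, the members Dnah8 and Ift27, Opn3, the magnocellular genes Avp, Oxt and Pou3f2, and the flanking genes Boc and Spice1 (x axis); points are samples and lines are group means. The shOpn3 mean of Cfap44 is 17.9% of its control, beside 21.4% for Avp and 20.6% for Oxt, while both flanking genes overlap between the groups.

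Among the 21 Cfap genes tested, 1 was higher and 4 were lower. Cfap77 (ENSRNOG00000028805), a protein of the inner wall of the doublet, had 10.2, 13.2, 4.08, 6.55 and 22.2 normalized counts across shControl and 34.5, 38.2, 39.2, 32.8 and 24.7 across shOpn3. The groups did not overlap, but shControl replicate 5 and shOpn3 replicate 5 lay close together, and the lowest value rests on 4 reads. Cfap77 rose 3.02-fold (log2 fold change 1.69, SE 0.361; limma adjusted p = 0.00671). Cfap57 (ENSRNOG00000007037), which is needed for inner dynein arms, had 91.8, 88.5, 95.9, 83.3 and 71.7 in shControl and 70.0, 46.7, 52.3, 57.0 and 61.6 in shOpn3. The groups were apart by a narrow margin, between 71.7 and 70.0, and the log2 fold change was -0.58 (SE of 0.153, limma adjusted p = 0.0194). Without shOpn3 replicate 3 this call was lost, at an adjusted p of 0.0543.

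The other lower Cfap genes are known for work outside the beating axoneme as well. Cfap410 (ENSRNOG00000001215), which acts at the base of primary cilia, had 794, 494, 509, 503 and 818 normalized counts across shControl and 519, 355, 357, 383 and 472 across shOpn3. Both samples of replicates 1 and 5 were high, and each shOpn3 sample lay below its same-numbered control. The log2 fold change was -0.56 (SE of 0.177, limma adjusted p = 0.0457, and 0.00182 with the replicate block). Cfap20 (ENSRNOG00000042179), a protein of the doublet and the centriole, had 1346 to 1616 in shControl and 1092 to 1366 in shOpn3. It was lower in 4 of 5 pairs, with a log2 fold change of -0.29 (SE of 0.0908, limma adjusted p = 0.0414). The call of Cfap410 was lost in 11 of 23 alternative fits and that of Cfap20 in 9, always without a change of direction. The 16 Cfap genes not called had log2 fold changes from -0.40 (Cfap126) to 0.54 (Cfap45). Cfap36, which had the most reads of this family, averaged 7314 ± 1128 in the controls and 6104 ± 968 under the Opn3 hairpin (SD, n = 5 each; limma adjusted p = 0.178). The median of the family was 0.11, and turned to -0.12 after quantile normalization and -0.08 without shControl replicate 4.

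Most dynein heavy chains had values above zero. Of 10 tested, 8 had a positive log2 fold change (7 after quantile normalization), beside 7332 of all 15597 genes. The median of the 10 was 0.29, although a single one of them was called higher. With the replicate block 2 were called higher, where 15.1% of all genes were. Without shControl replicate 5 there were 4, beside 10.1% of all genes, and with sample quality weights 5, beside 16.3%. Dnah11 (ENSRNOG00000005451), a heavy chain of the outer arm, had 421, 446, 422, 434 and 386 normalized counts across shControl and 668, 597, 651, 690 and 505 across shOpn3. Every shOpn3 sample lay above every shControl sample, and the log2 fold change was 0.55 (SE of 0.0992, limma adjusted p = 0.00256). Dnah11 overlaps Cdca7l and LOC120093173 in the RefSeq table, so its reads are uncertain in the same way as those of Cfap44. Dnah12, an inner-arm chain with the most reads of the family, had 2135, 1872, 2006, 1936 and 3414 in shControl and 3048, 2454, 3297, 2705 and 3029 in shOpn3. Here shControl replicate 5 was the highest sample of all, while the other 4 controls lay below every shOpn3 sample. Dnah12 was not called (log2 fold change 0.39, SE 0.152; limma adjusted p = 0.101), but was called with the replicate block (adjusted p = 0.0357) and without shControl replicate 5.

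Dnah8 (ENSRNOG00000000542), an outer-arm heavy chain known from sperm flagella, was the heavy chain that fell. It had 141, 131, 160, 124 and 98.1 normalized counts across shControl and 109, 76.5, 60.7, 68.6 and 58.6 across shOpn3. Only shOpn3 replicate 1 lay within the control range. The log2 fold change was -0.82 (SE of 0.193, limma adjusted p = 0.0110), and Dnah8 was lower in 5 of 5 pairs. Its span overlaps 7 other RefSeq genes, so these reads are uncertain too. Dnah17, the other sperm-type outer-arm chain, had a log2 fold change of -0.22 (SE of 0.158, limma adjusted p = 0.369). The 6 remaining chains, Dnah1, Dnah2, Dnah5, Dnah6, Dnah7 and Dnah9, had log2 fold changes from 0.14 to 0.51, none of them called.

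Intermediate chains, spokes, tektins and the nexin-dynein complex gave 1 call among 14 genes tested. Rsph3 (ENSRNOG00000018762), a stalk protein of the radial spoke, had 330, 310, 296, 259 and 309 normalized counts across shControl and 279, 237, 217, 182 and 198 across shOpn3. It was lower in 5 of 5 pairs, and shOpn3 replicate 1 alone reached into the control range. The log2 fold change was -0.45 (SE of 0.128, limma adjusted p = 0.0296), a call lost in 8 of 23 alternative fits. Rsph10b, the spoke gene with the most reads, averaged 491 ± 73.9 in the controls and 535 ± 102 under the Opn3 hairpin (SD, n = 5 each; limma adjusted p = 0.639). Dnai1, an outer-arm intermediate chain, had 123 to 159 in shControl and 93.5 to 123 in shOpn3 and was not called (log2 fold change -0.29, SE 0.132; limma adjusted p = 0.148). Tekt1 and Drc1, each with the most reads of its family, had log2 fold changes of 0.10 (SE 0.186) and 0.08 (SE 0.128). Rsph14, a spoke-related gene, and Tekt5 had the lowest and highest values of these 14 genes, -0.59 (SE 0.214) and 0.63 (SE 0.267), with limma adjusted p values of 0.0772 and 0.127. Tekt1 and Drc1 were not called either, with limma adjusted p values of 0.768 and 0.715.

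Nearly all intraflagellar transport genes had values slightly below zero. Of 13 tested, 12 had a negative log2 fold change under all 23 alternatives as well, with a median of -0.17, beside -0.02 for all genes. In the main fit, a negative value was found for 8265 of all 15597 genes. Ift27 (ENSRNOG00000006440), a small GTPase that links the transport trains to the BBSome, had 383, 427, 315, 356 and 398 normalized counts across shControl and 319, 253, 214, 215 and 227 across shOpn3. The groups overlapped only through shControl replicate 3 and shOpn3 replicate 1. Its log2 fold change was -0.62 (SE of 0.132, limma adjusted p = 0.00652). Ift20 (ENSRNOG00000008891), which also serves at the Golgi, had 1288 to 1367 in shControl and 1076 to 1220 in shOpn3. These ranges did not overlap, and the log2 fold change was -0.22 (SE of 0.0645, limma adjusted p = 0.0356), a call lost in 13 of 23 alternative fits. With the replicate block Ift122, Ift140 and Ift43, which belong to the complex that returns cargo to the cell body, were called as well (adjusted p = 0.0409, 0.0301 and 0.0154), as was Ift80 (0.0295). Ift80, with the most reads of the family, averaged 2948 ± 203 in the controls and 2615 ± 158 under the Opn3 hairpin (SD, n = 5 each). Ift74 was the gene with a positive log2 fold change, 0.15 (SE 0.123; limma adjusted p = 0.438).

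Of the 8 Bbs genes, 6 had a negative log2 fold change, beside 8265 of all 15597 genes, and 2 were called lower. Bbs1 (ENSRNOG00000019832), a core BBSome subunit, had 2197, 1974, 2085, 2124 and 2192 normalized counts across shControl and 1981, 1665, 1700, 1698 and 1812 across shOpn3. Its groups overlapped by a single sample on each side, and the log2 fold change was -0.26 (SE of 0.0700, limma adjusted p = 0.0227). Bbs9 (ENSRNOG00000015189), another core subunit, had 772 to 939 in shControl and 673 to 753 in shOpn3, without overlap between the groups (log2 fold change -0.27, SE 0.0819; limma adjusted p = 0.0360). The span of Bbs9 overlaps 2 other RefSeq genes, so its reads are uncertain as well. The call of Bbs1 was lost in 4 and that of Bbs9 in 9 of 23 alternative fits. Bbs4, the family's gene with the most reads, averaged 2291 ± 341 in the controls and 2123 ± 280 under the Opn3 hairpin (SD, n = 5 each; limma adjusted p = 0.583). The chaperonin-like Bbs10 and Bbs12, which help to assemble the BBSome, had log2 fold changes of -0.07 and 0.19.

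**Figure D4:**
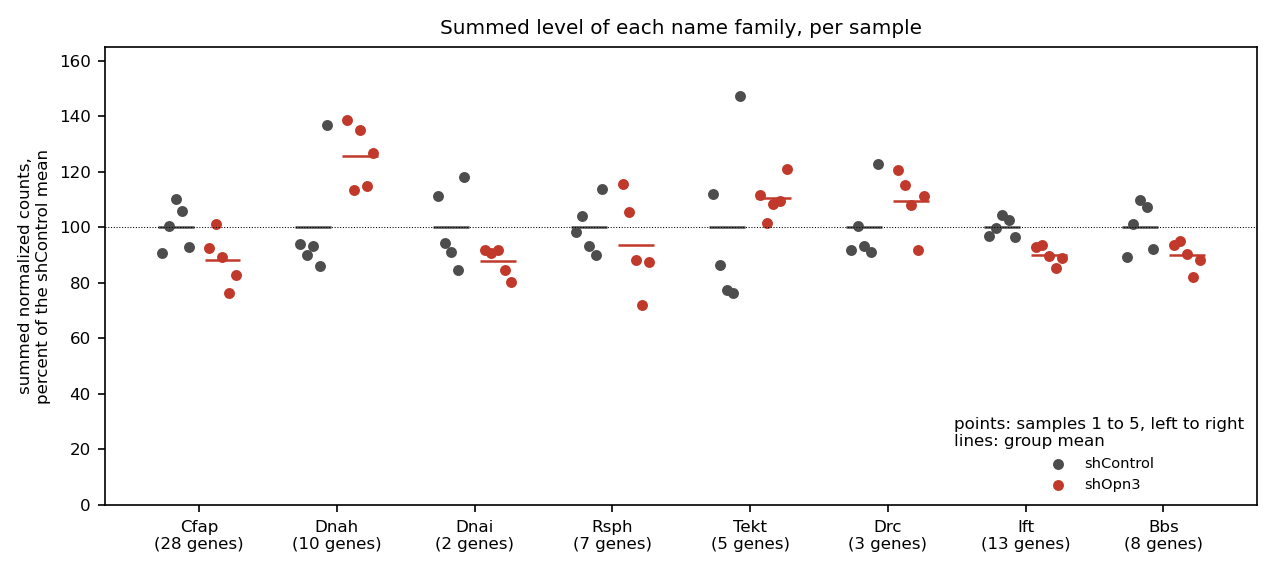
Summed normalized counts of each name family in each sample, as a percent of the family's shControl mean (y axis, from 0), for shControl in grey and shOpn3 in red (x axis: families with their number of genes); points are samples and lines are group means. The Ift sums of the 5 shOpn3 samples (17361 to 19034) lie below all 5 shControl sums (19589 to 21184), while 1 shControl sample lies far above the other 4 for Dnah. In shControl, Dnah12 averaged 2273 of a Dnah sum of 3900, and Cfap36 averaged 7314 of a Cfap sum of 14083. Without Dnah12, the Dnah sum was 1923 in shControl replicate 5 and 1638 in the next highest control.

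Complete separation of the groups was seen for 7 of the 66 (10.6%), namely Cfap44, Cfap57, Dnai1, Ift20, Bbs9, Cfap77 and Dnah11, beside 15.3% of all genes tested. The 2 higher ones (3.03%) stand beside 8.03% of all genes and the 5 lower ones (7.58%) beside 7.23%. Without Cfap44, which was chosen by this contrast, 6 of 65 were separated, 2 higher and 4 lower. Axonemal genes deviated together in single libraries. In shControl replicate 5, 34 of the 45 tested Cfap, Dnah, Dnai, Rsph, Tekt and Drc genes lay above the mean of the other 4 controls, with a median difference of 0.40 on the log2 scale. For all genes tested the same median was 0.02. In that library 15 of the 21 Ift and Bbs genes lay below the other controls, with a median of -0.11. In shControl replicate 4, 36 of the 45 axonemal genes lay below the others (median -0.24), and in shOpn3 replicate 1, 31 of 45 lay above (median 0.19).

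Cilium genes outside the name rule were read from lists written from general knowledge with earlier results of these data known. For the list counts below, 10.4% of all genes tested were called higher and 8.48% lower. With the replicate block these shares were 15.1% and 15.2%. Of 40 tested genes of the motile axoneme, 1 was higher and 3 were lower, with a median log2 fold change of -0.04. With the replicate block 2 were higher and 5 lower. Among the lower ones were Tppp3, a tubulin-binding protein (-0.99, SE 0.244), and Wdr63, a dynein intermediate chain (-0.76, SE 0.235). Their limma adjusted p values were 0.0140 and 0.0410. Of 14 tested factors that assemble axonemal dynein in the cytoplasm, 2 were higher and 0 lower. An unadjusted limma p under 0.05 was reached by 4 of the 14, 2 of them lower, beside 4994 of all 15597 genes. DESeq2 and edgeR each called 2, and 4 were called with the replicate block, 2 of them lower. Lrrc6 rose from a mean of 57.4 ± 3.90 to 112 ± 18.1 (SD, n = 5 each), a log2 gain of 0.95 with an SE of 0.144 (limma adjusted p = 0.000997). Dnaaf3 rose from 47.1 ± 11.4 to 82.4 ± 10.8 (SD, n = 5 each), a log2 gain of 0.82 with an SE of 0.185 (limma adjusted p = 0.00909). Among 24 tested partners of the transport complexes, 2 were lower, Traf3ip1 (-0.33, SE 0.0879) and Ttc30b (-0.30, SE 0.0795), and the median was -0.08. With the replicate block 4 of them were lower.

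Of 12 tested regulators of ciliogenesis, 2 were higher, 1 was lower and 9 were not called. Rfx2 and Rfx3 encode transcription factors that bind the X-box, a motif found before many cilium genes. Rfx2 had 455, 291, 253, 291 and 440 normalized counts across shControl and 246, 118, 122, 153 and 162 across shOpn3, without overlap (log2 fold change -1.12, SE 0.223; limma adjusted p = 0.00465). Rfx3 had 410, 415, 389, 416 and 458 in shControl and 663, 602, 533, 512 and 592 in shOpn3, also without overlap and in the opposite direction (0.47, SE 0.0934; limma adjusted p = 0.00452). Gmnc, an inducer of multiciliated cells, rose from 13.8 ± 3.48 to 25.4 ± 5.35 (SD, n = 5 each), a log2 gain of 0.84 with an SE of 0.236 (limma adjusted p = 0.0262). Of 66 tested genes of the primary cilium membrane, transition zone and signalling, 4 were higher and 5 lower, and with the replicate block 6 were higher and 8 lower. Among them were the dopamine receptor gene Drd1 (0.97, SE 0.131) and Gli1, a target of hedgehog signalling (-0.81, SE 0.225). The limma adjusted p was 0.000603 for Drd1 and 0.0242 for Gli1.

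Promoter sequence of the members was taken from RefSeq windows of assembly GRCr8, each of 250 bases before and 50 after a gene's start. The first listed window was used, which was found for 63 of the 76 members. The X-box core GTTGCC, searched on both strands, was present in 21 of the 63 windows (33.3%) and in 12.2% of 27457 windows of all genes. A longer form with both arms of the X-box, GTNNCC followed after 3 free bases by GNNAC, also searched on both strands, was present in 14 of 63 (22.2%) and in 4.60% of all windows, and a match to the longer form can contain the core. The forkhead motif TGTTTAC was present in 2 of 63 (3.17%) and 3.76%. Among the 57 tested members with a window, 12 held the longer form. Cfap44 was the single called gene among these holders, and its call is no test, since it was chosen by this contrast. Of all 57, 11 were called, Cfap44 included, beside 18.8% of all genes tested. Of the 11 tested holders other than Cfap44, 7 had a positive and 4 a negative log2 fold change, from -0.20 (Ift140) to 0.54 (Cfap45). With the replicate block, Cfap45 and Dnah12 were called higher and Ift140 lower, beside 15.1% and 15.2% of all genes. Over all genes tested, 7332 were positive and 8265 negative. Stretches of Cfap44 and of Cfap45, Dnah2, Tekt1 and Dnah12 are shown to let the letters be seen. The latter 4 were picked from holders whose match lies before or at the start and all had values above zero, so they do not represent the 11. Each runs 5′ to 3′ on the gene's strand from 119 bases before the start to the first transcribed base, with the match to the longer form in capitals. For Cfap44 and Cfap45 the match is on the opposite strand, so the capitals are the reverse complement of the form as spelled above. They lie at chr11:69789905-69790024 (minus strand, Cfap44), chr13:87521712-87521831 (plus, Cfap45), chr10:54766026-54766145 (minus, Dnah2), chr10:57479121-57479240 (minus, Tekt1) and chr16:1944633-1944752 (plus, Dnah12). A match is a description of letters, not of a bound site.
Cfap44: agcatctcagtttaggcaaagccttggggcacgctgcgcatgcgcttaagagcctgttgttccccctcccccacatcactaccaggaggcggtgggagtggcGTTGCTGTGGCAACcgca
Cfap45: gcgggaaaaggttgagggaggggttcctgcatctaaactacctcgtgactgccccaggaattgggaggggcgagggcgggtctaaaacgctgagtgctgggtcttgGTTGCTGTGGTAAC
Dnah2: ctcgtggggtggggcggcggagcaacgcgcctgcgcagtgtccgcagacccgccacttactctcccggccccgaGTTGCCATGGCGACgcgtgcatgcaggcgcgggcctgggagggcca
Tekt1: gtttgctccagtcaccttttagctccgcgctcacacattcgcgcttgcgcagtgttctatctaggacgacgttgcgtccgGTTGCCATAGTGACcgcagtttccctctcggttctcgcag
Dnah12: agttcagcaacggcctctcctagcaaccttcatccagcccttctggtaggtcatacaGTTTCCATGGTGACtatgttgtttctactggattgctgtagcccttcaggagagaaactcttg

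Markers of other cell types moved between the groups, and their part in the results above was not tested. Summed normalized counts of the 12 oligodendrocyte markers ran from 789036 to 1332930 in shControl and from 274060 to 509991 in shOpn3, with 11 markers called lower. The 14 microglial markers ran from 17515 to 21326 and from 29109 to 57171, with 13 called higher. The 12 magnocellular genes ran from 94038 to 212088 and from 50027 to 80539, with 10 called lower and 1, Nrgn, higher. Avp and Oxt were present in all samples, at no less than 4619 and 3810 normalized counts. Of 14 listed ependymal genes, 13 were in the table and 10 were tested, with 1 higher (Cd24) and 2 lower (Tppp3 and Nnat). Their sums ran from 28362 to 34527 in shControl and from 22123 to 30789 in shOpn3. Most of each sum was Nnat, which averaged 21102 in shControl and 16119 in shOpn3, so the sums mainly describe that gene. Of the genes that define ependymal cells, Ccdc153 had 35.5 and 35.7 normalized counts on average, Tmem212 had 4.54 and 1.21, and Sntn was at 0 reads in all shControl samples and averaged 1.56 in shOpn3. Foxj1 is on the ependymal list but is not reported here. Choroid plexus markers ran from 20376 to 31493 and from 10514 to 14409, with Enpp2 and Prlr, which are not confined to that tissue, called lower. Most of each sum was Enpp2, which averaged 20904 in shControl and 10698 in shOpn3, so these sums mainly describe that gene. Of 10 tanycyte genes tested 3 were higher (Crym, Slc17a8 and Vim), of 12 astrocyte genes 4 were higher and 1 lower, and of 15 neuronal genes 1 was higher and 2 were lower. Of 7 endothelial genes, limma, edgeR and DESeq2 each called 0, with 0 at an unadjusted p under 0.05 in limma, and limma with the replicate block called 2.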

How the data were processed

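The deposited table gave, per the file headers, a signal per gene and sample: the authors' read counts after division by a size factor for each library. The deposited comparison by the authors held log2 fold changes with standard errors, the Wald statistic as a score, and raw and adjusted p-values. Per the submitters' processing notes, FastQC, STAR, featureCounts and DESeq2 were used, while versions, genome build, annotation and strand setting were not given in the sources used here. Every positive value was a whole multiple, within 0.01, of its sample's smallest, so whole reads were recovered for 100% of values. The edgeR (4.0.16) quasi-likelihood test on these reads called 3025 genes and the same 12 members. The p-values measure the spread between these nuclei. The size factors ran from 0.942 to 1.07.

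Normalized counts were transformed as log2(value + 1), genes averaging under 10 were dropped, and groups were compared with limma (3.58.1, R 4.3.3; eBayes with a trend, group as the only term), with two-sided p-values adjusted by the Benjamini-Hochberg method over all 15597 genes. Fold changes on this scale understate those of low genes. The limma function was tested on simulated data. Same-numbered samples deviated together in all 5 pairs, with r from 0.12 to 0.44. For different numbers r ran from -0.45 to 0.36, with a median of -0.21. Pair 4, at 0.12, lay below shControl replicate 4 with shOpn3 replicates 2 and 3 (0.238 and 0.240). Deviations were taken from the group means, which lowers r for different numbers where same numbers agree. The numbers were taken to pair the nuclei of a rat, which no label states. The main p-values, standard errors and calls leave this pairing out and treat the 10 nuclei as independent. With the numbers as a block, limma called 18 members in place of 12. Alternatives covered the block, pseudocounts of 0.5 and 5, the minimum, scaling, sample weights, edgeR, DESeq2 (1.42.0) and leaving out samples. The members, lists and tests were chosen with earlier results of these data known. Named members were Cfap44, each family's gene with the most reads, its called genes, and those next to the minimum; beyond this rule, members were named after their values were seen. The genes named as most like Cfap44, its neighbour Boc and up to 3 called genes of a list followed fixed rules, with clone and locus names not counted as symbols. Its neighbours Spice1, Sidt1 and Usf3 were added after their values were seen, and no gene beyond Boc is reported. Some genes that met these rules are not reported here. In all, 9 letter forms were searched in the promoter windows and 3 are given.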

Additional observations from a re-analysis of the deposited data

Results flagged for a closer look

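In 3 of 46 group values examined (each tested gene named by the rule, in each group of 5), the gap between an extreme sample and its nearest neighbour took up over 0.71 of the spread of all 5, where chance gives about 1 in 20, or 2.3. For Cfap44 this was shOpn3 replicate 1, at 92.1 normalized counts against 40.4 in the sample nearest to it. Dnah12 stood at 3414 in shControl replicate 5, with 2135 in the next, and Drc1 at 1073 in the same library, with 849 in the next. Without shOpn3 replicate 1, the log2 fold change of Cfap44 was -2.91. Without shControl replicate 5, that of Dnah12 was 0.54 (limma adjusted p = 0.00246) and that of Drc1 was 0.16 (limma adjusted p = 0.392).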

How the results depend on the processing

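Of 23 alternative fits, 3 were chosen after seeing the data: edgeR with the replicate block, and limma without both samples of replicate 1 or of replicate 5. The number of members called higher was 2, and became 4 with the replicate block in limma and in edgeR, 12 with sample quality weights, which also moved the number called lower from 10 to 16 (18.2% and 24.2% of members, beside 16.3% and 16.2% of all genes in that fit), and 1 with a minimum of 50, which removes Cfap77. Leaving out 1 sample gave 2 to 6 members higher (3.03% to 9.09%) and 3 to 11 lower (4.55% to 16.7%). Of all genes, 7.48% to 10.6% were higher and 5.26% to 9.01% lower in these fits. Cfap44 is counted among the lower ones in each, which is no test, since it was chosen by this contrast. Without both samples of replicate 5, 3 were higher and 4, Cfap44 included, were lower (4.55% and 6.06%), beside 7.95% and 6.14% of all genes. Fewer samples were tested there, and the cause of the other shifts was not tested. The median log2 fold change of the members ran from -0.083 to 0.050 without 1 sample, changing sign without shControl replicate 5, and was 0.066 without both samples of replicate 5 and 0.011 with sample weights. The value of Cfap44 against the other members (its log2 fold change minus the next lowest) ran from -1.94 to -1.65 over all fits. Dnah11, Dnah8, Ift27 and Cfap77 kept their direction and call in every fit that tested them. Of 525 values of named members, 461 kept their side of the threshold, 55 lost and 9 gained the call, and 0 reversed. The pairing changed the calls of Cfap45, Dnah12, Ift122, Ift140, Ift43 and Ift80 and of no member called without it. Over the scalings and tests tried, the median of all genes lay within 0.1 of zero. Depth limits Cfap77, Cfap126, Cfap65 and Rsph6a most.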

Other observations

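Of the 10 members under the minimum, Drc7, Cfap206 and Tekt3 had reads in every sample. Cfap58 and Cfap58l1 had 0 reads in all 10 samples, and Rsph4a had a total of 1 read over them. Cfap73, Cfap97d1, Cfap221 and Cfap157 had means of 1.10, 1.12, 2.68 and 3.11 normalized counts.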
